A study of Mus musculus with 13 samples.

Results

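The matrix metalloproteinase (MMP) genes Mmp2, Mmp3, Mmp9, Mmp11, Mmp13 and Mmp14 and the genes of the tissue inhibitors of metalloproteinases, Timp1, Timp2, Timp3 and Timp4, were followed in bulk RNA-seq of the mouse thymic stroma before and after sublethal total body irradiation (TBI). These 10 genes, of 53379 in the count table, were matched by symbol. They had been selected on earlier results of the same counts, so their levels and tests are given as a description and nothing is read from how many of them changed. All 10 passed the filter on low counts, as did 19984 genes in all.

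RNA came from cells sorted as CD45- from the thymus of wild type C57BL/6 mice aged 2 months. The steady state group held 4 libraries, which the protocol describes as PBS and the sample labels as untreated, and 3 libraries each were made on days 1, 4 and 7 following TBI. The design asks how stromal gene expression changes over the first week after thymic damage. The study's methods call the bulk libraries biological replicates, without saying whether each came from 1 mouse or a pool, and p-values measure the spread between these libraries. The steady state libraries are called by their column names (PBS-d1-2, PBS-d4-2, PBS-d7-1 and PBS-d7-2), because the columns do not carry the replicate numbers of the labels. These names hold d1, d4 or d7, so the group may mix controls of different days, which the labels do not state.

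MMPs are zinc-dependent endopeptidases that are made as inactive precursors and cleave collagens, laminins, proteoglycans, growth factors and chemokines in the extracellular matrix. TIMPs are small secreted proteins that bind the active site of MMPs and block them, and the balance between the 2 families sets how fast matrix is turned over. In the thymus, fibroblasts, endothelial cells and epithelial cells sit in such a matrix, and thymocytes migrate through it.

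Library totals ran from 15721866 to 52056896 counts with a median of 44078906. The labelled stroma carried its defining markers, with summed fibroblast markers (7 genes including Pdgfra and Dcn) of 10573 to 50683 counts scaled to library size (CPM) at steady state, 12954 to 26703 on day 1, 22010 to 27281 on day 4 and 14228 to 24798 on day 7. Within that list Pdgfrb was higher in every day 1 than in every steady state library (means of 434 to 1394 CPM). Dcn was lower in every one (11703 to 5448 CPM). Pdgfra had a higher mean at day 1 and Col1a1, Dpt, Lum and Pi16 lower means, in overlapping groups. Markers of cells outside the stroma were also present. The 4 erythroid markers summed to 19580 to 33881 CPM at steady state, 3867 to 16795 on day 1, 8.91 to 12.9 on day 4 and 2556 to 7330 on day 7, and the 7 thymocyte markers to 156 to 557, 80.7 to 101, 16.7 to 23.8 and 132 to 3219 CPM. Of the steady state libraries, PBS-d4-2 had the highest fibroblast sum. In bulk samples, fewer cells of a type and less RNA per cell cannot be told apart.

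The clearest pattern lay at day 1. Mmp3, Mmp13 and Timp1 were all higher in every day 1 library than in every other library, whereas Timp3 and Timp4 were lower in every day 1 library than in every steady state library. Of the 10 members, 2 (Mmp3 and Mmp13) rose at day 1 against steady state and none fell (edgeR quasi-likelihood test, Benjamini-Hochberg adjusted p of 0.05 or less over all genes tested), beside 2.35% of all tested genes, and 5 of 10 had groups that did not overlap, beside 15.8% of all tested genes. At day 4 against steady state 1 member (Mmp11) rose and none fell, beside 0.29%, and 2 of 10 did not overlap, beside 14.7%. At day 7 no member was called by edgeR, beside 0.005%, with 2 at an unadjusted p under 0.05 and 1 (Timp4) called by DESeq2, and no member's groups were without overlap, beside 7.49%. Of the 19984 tested genes, 3444, 2602 and 2691 had an unadjusted p under 0.05 at days 1, 4 and 7 against steady state.

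**Figure D1:**
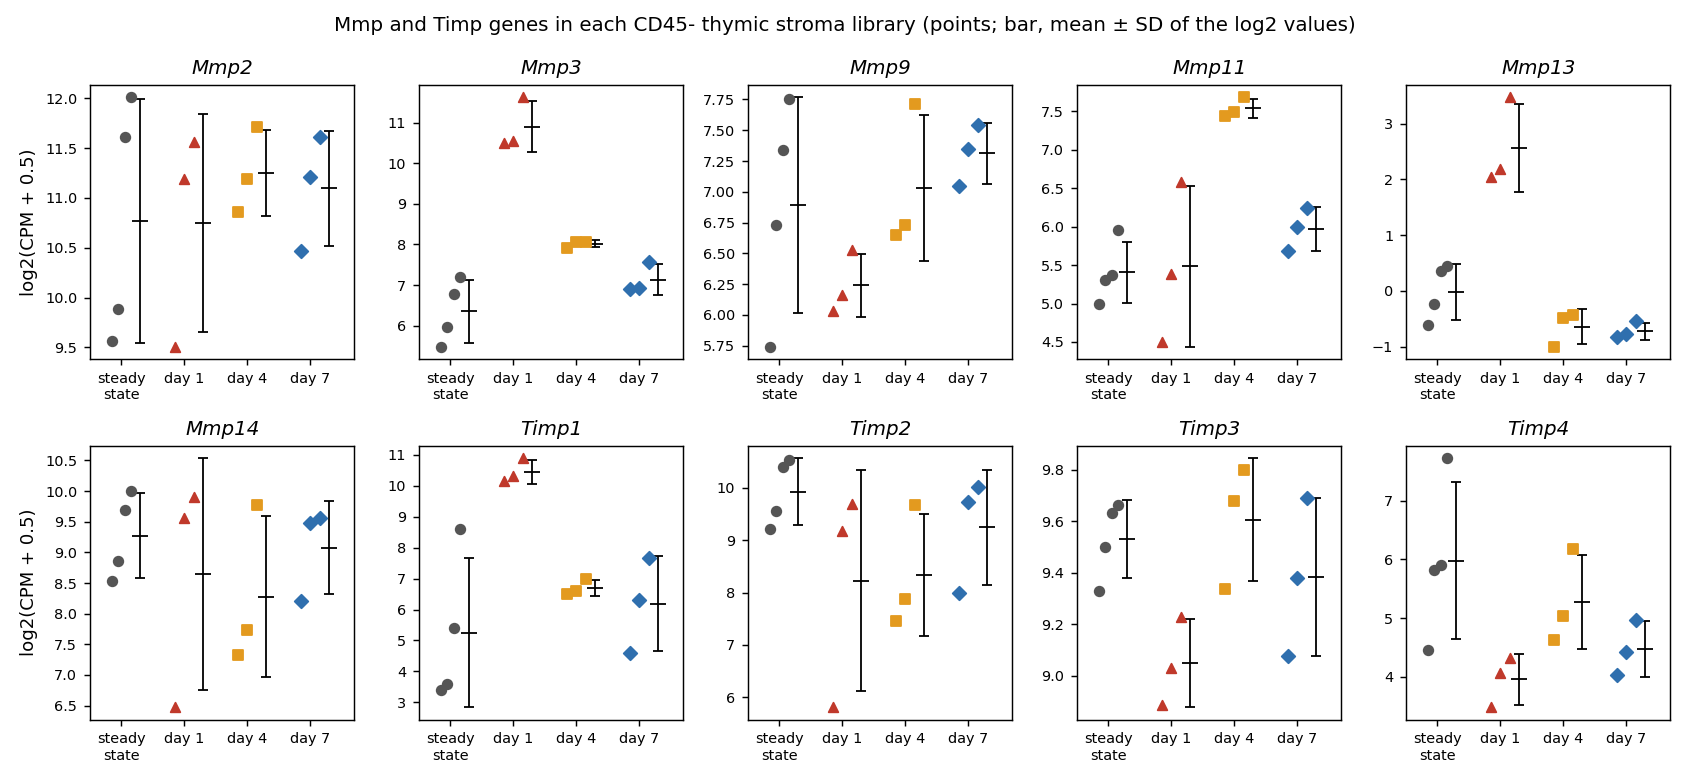
Level of each Mmp and Timp gene, as log2(CPM + 0.5) on the vertical axis, in the 4 steady state libraries and the 3 libraries each on days 1, 4 and 7 following TBI; points are libraries and bars are the mean ± SD. Mmp3, Mmp13 and Timp1 stand highest in all 3 day 1 libraries and Mmp11 in all 3 day 4 libraries, while Mmp2 and Mmp14 spread widely within groups.

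Between the days after TBI, 2 members (Mmp3 and Mmp13) fell from day 1 to day 4 and none rose, beside 1.43% of all genes, and 7 of 10 did not overlap, beside 26.3%. From day 4 to day 7 none was called by edgeR, beside 3.9%, with 1 (Mmp11) at an unadjusted p under 0.05 and called by DESeq2, and 2 of 10 did not overlap, beside 26.2%. Over all 19984 tested genes, 3735 had an unadjusted p under 0.05 from day 4 to day 7, and 2729 from day 1 to day 4. The median log2 fold change over the 10 members was -0.15 at day 1, -0.03 at day 4 and -0.14 at day 7 against steady state, where the median over all tested genes was -0.10, -0.13 and 0.00. It was 0.03 for day 4 against day 1 and -0.17 for day 7 against day 4, with -0.10 and 0.11 over all genes. The comparisons with steady state share the 4 control libraries.

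**Figure D2:**
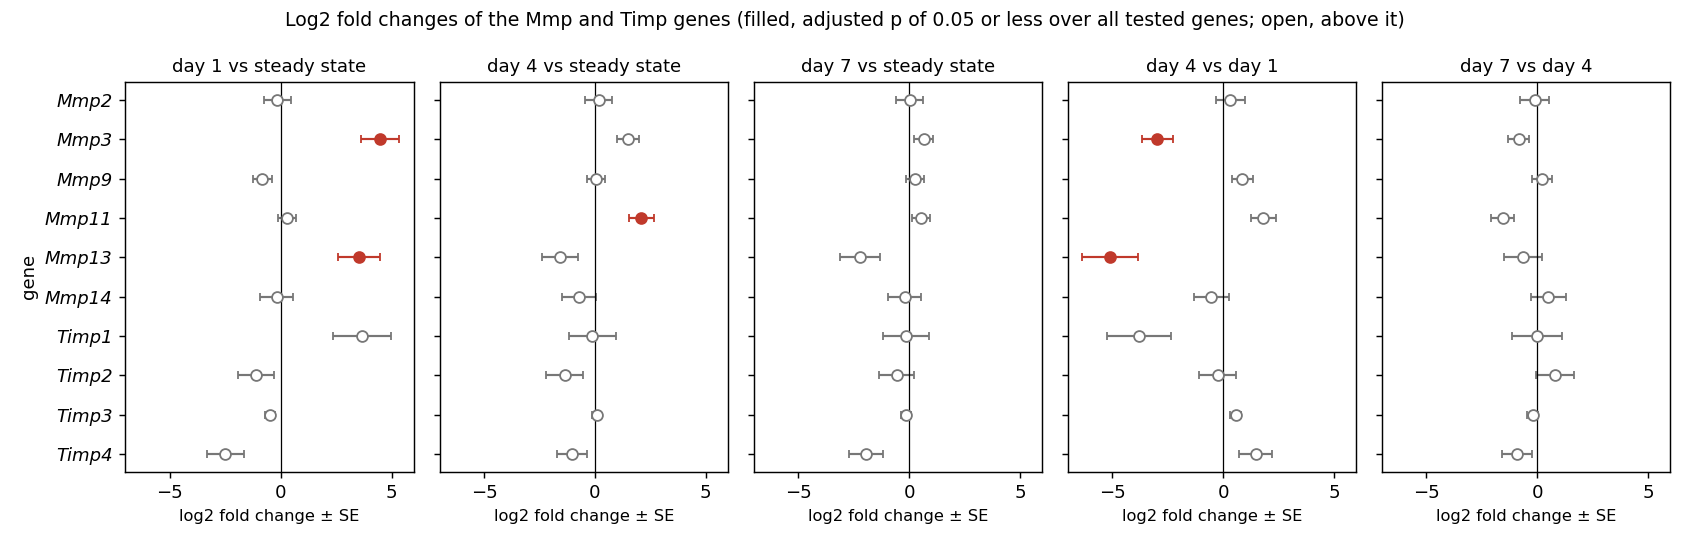
Log2 fold change of each member in the 5 comparisons, with its standard error as bars; filled points passed an adjusted p of 0.05 or less over all tested genes and open points did not. Mmp3 and Mmp13 pass in day 1 against steady state and in day 4 against day 1, and Mmp11 passes in day 4 against steady state.

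Among the stromelysins, which cleave proteoglycans, laminin and fibronectin and activate other MMP precursors, Mmp3 (ENSMUSG00000043613, chr9:7445822-7455975, plus strand, GRCm38) moved most. Its CPM at steady state was 146 in PBS-d1-2, 61.9 in PBS-d4-2, 110 in PBS-d7-1 and 44.3 in PBS-d7-2. At day 1 it was 3146, 1504 and 1457 in replicates 1 to 3. It was 265, 268 and 241 at day 4 and 190, 121 and 120 at day 7.

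All 3 day 1 libraries thus stood far above the rest, and all 3 day 4 libraries lay above all steady state and day 7 libraries, with little spread. Mmp3 rose by 4.49 on the log2 scale at day 1 (SE 0.846, a fold of 22.5, adjusted p = 0.000118) and fell by 2.98 from day 1 to day 4 (SE 0.695, adjusted p = 0.005). The day 4 difference from steady state was 1.51 (SE 0.490, adjusted p = 0.149), and it passed with DESeq2 (1.59, adjusted p = 0.00924) and with no filter (adjusted p = 0.0394). The day 7 difference of 0.66 (adjusted p = 0.544) lay within overlapping groups. The order of the group means was day 1, day 4, day 7 and steady state (2036 ± 962, 258 ± 14.6, 143 ± 40.04 and 90.6 ± 46.3 CPM, SD), in which day 7 and steady state overlapped.

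The collagenase gene Mmp13 (ENSMUSG00000050578, chr9:7272514-7283331, plus strand), whose product cleaves fibrillar collagens, was at a low level throughout. Its CPM at steady state was 0.855 in PBS-d1-2, 0.150 in PBS-d4-2, 0.344 in PBS-d7-1 and 0.775 in PBS-d7-2, from 6 to 39 counts. At day 1 it was 10.6, 4.04 and 3.64, from 87 to 375 counts. At day 4 it was 0, 0.211 and 0.241, from 0 to 13 counts, and at day 7 0.185, 0.0615 and 0.0813, from 3 to 9 counts.

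The 3 day 1 libraries were again the highest of all 13. The day 4 library with no count allows up to 3 counts, or 0.194 CPM, at its depth, counting error only. Mmp13 rose by 3.53 at day 1 (SE 0.950, a fold of 11.6, adjusted p = 0.0153) and fell by 5.10 from day 1 to day 4 (SE 1.25, adjusted p = 0.00828). The day 1 call was lost without PBS-d7-1 (adjusted p = 0.0589), without day 1 replicate 1 (adjusted p = 0.0924, log2 fold change 2.87) or with a thymocyte marker score as a covariate (adjusted p = 0.0687), and the call from day 1 to day 4 without day 4 replicate 2 (adjusted p = 0.0648) or 3 (adjusted p = 0.0546) or with a term for the suffix of column names (0.0776). The differences from steady state at day 4 (-1.57, adjusted p = 0.397) and day 7 (-2.22, adjusted p = 0.212) lay in overlapping groups.

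The sequences just before the starts of these genes are shown because Mmp3 and Mmp13 lie on the same chromosome, were highest at the same time and share motifs that the other members of the promoter table lacked in the same window. They are the 100 bases before the start in RefSeq (GRCm38.p6), given 5′ to 3′ on the gene's strand, with Timp1 for comparison: chr9:7445722-7445821 (plus) for Mmp3, chr9:7272414-7272513 (plus) for Mmp13 and chrX:20870066-20870165 (plus) for Timp1. Capitals mark matches to the AP-1 motif TGANTCA and to TATAAA, both searched on both strands; the letters do not overlap between the motifs.
Mmp3: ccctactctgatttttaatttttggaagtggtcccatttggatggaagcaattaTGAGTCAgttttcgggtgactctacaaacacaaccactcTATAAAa
Mmp13: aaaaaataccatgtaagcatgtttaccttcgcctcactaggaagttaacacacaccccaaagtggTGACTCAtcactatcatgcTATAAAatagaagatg
Timp1: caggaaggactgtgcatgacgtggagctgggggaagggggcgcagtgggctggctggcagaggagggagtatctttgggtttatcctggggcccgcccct

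The AP-1 match lay at -46 to -40 from the start in Mmp3 and at -35 to -29 in Mmp13, and the TATAAA match at -7 to -2 and -16 to -11. Of the 8 members in the promoter table, these 2 alone held either motif in the window from 250 bases before to 50 after the start. Mmp2 and Mmp9 were not among the 8 and were not searched. Over all 32851 promoters of the table, 7.81% held TGANTCA and 13.6% TATAAA in the same window. Timp1, which was also highest in every day 1 library, held neither motif in that window. A match is a run of letters and not a measured binding site, and a link between the motifs and the levels was not tested.

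Mmp11 (ENSMUSG00000000901, chr10:75923222-75936496, minus strand) encodes stromelysin-3, a metalloproteinase of stromal fibroblasts that is activated inside the cell. Its CPM at steady state was 41.0, 61.4, 31.4 and 39.1 (PBS-d1-2, PBS-d4-2, PBS-d7-1 and PBS-d7-2), and at day 1 it was 22.1, 41.1 and 95.2. At day 4 it was 205, 180 and 172 and at day 7 75.1, 63.1 and 50.6. The day 4 libraries were the 3 highest of all and close to each other, whereas those of day 1 spanned the range from below steady state to above day 7.

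Mmp11 rose by 2.10 at day 4 against steady state (SE 0.548, a fold of 4.30, adjusted p = 0.0438). That call passed narrowly, and it was lost in 10 of 22 alternatives: without PBS-d1-2, PBS-d7-1, PBS-d7-2, day 1 replicate 2 or any of the day 4 replicates (adjusted p of 0.0672 to 0.187), with at least 10 counts in every library (0.0591), with a term for the suffix (tag family) of column names (0.117) and with the thymocyte score (log2 fold change 1.53, adjusted p = 0.425). The log2 fold change was 1.81 from day 1 to day 4 (SE 0.549, adjusted p = 0.0605) and -1.56 from day 4 to day 7 (SE 0.522, adjusted p = 0.0606), both with groups that did not overlap. Without day 1 replicate 3 the former was 2.56 (adjusted p = 0.00442), and without PBS-d1-2, day 1 replicate 1 or day 1 replicate 3 the latter passed (adjusted p of 0.049, 0.0266 and 0.027). Of its exonic bases, 5.58% overlap Chchd10. Summed epithelial markers, at 709 to 2516 CPM at steady state and 998 to 2070 on day 1, were 2025 to 3739 on day 4 and 622 to 1199 on day 7, with the highest median (2896) at day 4. Within that list Krt5 was higher in every day 4 than in every steady state library (298 ± 171 to 1102 ± 188 CPM, SD, adjusted p = 0.0903). Krt8 (429 to 770 CPM), Foxn1 (41.1 to 79.2 CPM), Psmb11 (102 to 233 CPM) and Prss16 (473 to 649 CPM) had higher means at day 4, in overlapping groups. Epcam (83.6 ± 59.1 to 49.9 ± 43.2 CPM) and Aire (21.3 ± 25.8 to 3.92 ± 0.889 CPM) had lower means at day 4, also in overlapping groups. Of the pericyte and smooth muscle markers, Kcnj8 was also higher in every day 4 library (41.7 to 103 CPM, adjusted p = 0.0615). It fell to 47.0 CPM at day 7 (adjusted p = 0.0434). Cspg4 (27.1 to 41.2 CPM) was also without overlap, Rgs5 had a higher mean and Acta2 and Myh11 had lower means. Median fibroblast sums were 22396 CPM at steady state and 23540 at day 4, and endothelial ones 837 and 932, in overlapping groups. The part of epithelial or other cells in the Mmp11 result was not tested.

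The gelatinase Mmp2 (ENSMUSG00000031740, chr8:92827291-92853420, plus strand), which degrades denatured and basement membrane collagen, had the highest level per length of the 6 Mmp genes in every steady state library. Its CPM at steady state was 755, 4121, 942 and 3129 in the order above, and after TBI it was 728, 3011 and 2332 on day 1, 3358, 2333 and 1851 on day 4 and 3124, 1419 and 2366 on day 7. All groups overlapped, and PBS-d1-2, PBS-d7-1 and day 1 replicate 1 were the low libraries. The log2 difference from steady state was -0.14 (SE 0.609, adjusted p = 0.929) at day 1, 0.17 (SE 0.606, adjusted p = 0.916) at day 4 and 0.04 (SE 0.607, adjusted p = 0.994) at day 7.

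Its membrane-bound activator Mmp14 (ENSMUSG00000000957, chr14:54431612-54445364, plus strand) cleaves collagen at the cell surface and processes the Mmp2 precursor. Mmp14 was at 368, 1028, 466 and 831 CPM at steady state, at 88.2, 955 and 759 on day 1, at 874, 213 and 160 on day 4 and at 752, 294 and 715 on day 7. Day 1 replicate 1 and day 4 replicates 2 and 3 were the lowest, and every group overlapped every other. Its log2 difference from steady state was -0.16 (SE 0.742, adjusted p = 0.934) at day 1, -0.70 (SE 0.763, adjusted p = 0.674) at day 4 and -0.20 (SE 0.743, adjusted p = 0.977) at day 7.

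The other gelatinase gene, Mmp9 (ENSMUSG00000017737, chr2:164940780-164955850, plus strand), is best known in neutrophils and macrophages. Its CPM was 216, 53.0, 162 and 106 at steady state, 64.9, 71.0 and 91.7 on day 1, 99.6, 210 and 106 on day 4 and 186, 162 and 132 on day 7. All 3 day 1 libraries lay below all day 4 and day 7 libraries, but PBS-d4-2 was lower still. The log2 difference from steady state was -0.82 at day 1 (SE 0.445, adjusted p = 0.326), and that from day 1 to day 4 was 0.87 (SE 0.470, adjusted p = 0.4). The 8 neutrophil markers summed to 40.8 to 200 CPM at steady state, 143 to 258 on day 1, 118 to 296 on day 4 and 44.7 to 60.6 on day 7, with up to 3 of them at 0 counts in a steady state library. Ltf, which epithelial cells also express, made up most of that sum, at means of 88.7, 167, 202 and 49.6 CPM at steady state and days 1, 4 and 7. S100a8 had means of 3.46, 7.58, 0.976 and 1.03 CPM. Every marker of the list had a higher mean at day 1 than at steady state, in overlapping groups except for Retnlg (0.149 to 1.12 CPM). S100a8, S100a9, Ngp, Camp and Mpo all had a lower mean at day 4 than at steady state, in overlapping groups. Retnlg (0.149 to 0.183 CPM) and Elane (0.106 to 0.120 CPM) had a higher mean at day 4, as did Ltf. Over the 13 libraries the correlation (r) of Mmp9 with the summed neutrophil markers was -0.005. The 7 macrophage markers summed to 49.3 to 146 CPM at steady state, 68.5 to 122 on day 1, 57.9 to 82.25 on day 4 and 37.6 to 152 on day 7. The part of neutrophils or macrophages in the level of Mmp9 was not tested.

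Of the inhibitors, Timp1 (ENSMUSG00000001131, chrX:20870166-20874735, plus strand), a secreted inhibitor induced by cytokines in many tissues, had the widest range of group means (5.21 on the log2(CPM + 0.5) scale). Its CPM at steady state was 11.4 in PBS-d1-2, 385 in PBS-d4-2, 10.1 in PBS-d7-1 and 42.0 in PBS-d7-2. It was 1902, 1267 and 1138 on day 1, 95.5, 126 and 89.6 on day 4 and 77.9, 23.8 and 204 on day 7. Every day 1 library was above every other library, and PBS-d4-2 was the next highest.

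The day 1 difference of Timp1 from steady state was 3.68 on the log2 scale (SE 1.31, a fold of 12.8) with an adjusted p of 0.109, so that it did not pass the edgeR test. Leaving out 1 library changed the call: without PBS-d4-2 the difference was 6.09 (adjusted p = 0.00218). It also passed with DESeq2 (3.72, adjusted p = 0.0232) and with no filter (adjusted p = 0.0141). The difference from day 1 to day 4 was -3.79 (SE 1.45, adjusted p = 0.182), which became 0.0245 without PBS-d4-2, 0.0119 with only the groups compared, 0.0453 with DESeq2 and 0.041 with no filter. Day 4 and day 7 overlapped steady state, at differences of -0.11 (adjusted p = 0.967) and -0.14 (adjusted p = 0.99).

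Timp4 (ENSMUSG00000030317, chr6:115241892-115252205, minus strand), the family member with the most restricted expression, was lower in the day 1 libraries. Its CPM was 211, 21.6, 59.4 and 56.3 at steady state, 19.6, 10.7 and 16.3 on day 1, 24.2, 32.5 and 71.8 on day 4 and 21.1, 30.9 and 15.8 on day 7. The day 1 libraries all lay below the steady state ones, though PBS-d4-2 came close to day 1 replicate 1. The log2 difference was -2.49 at day 1 (SE 0.821, adjusted p = 0.0748), -1.02 at day 4 (adjusted p = 0.477) and -1.95 at day 7 (SE 0.756, adjusted p = 0.18). The day 1 difference passed without PBS-d4-2 (-2.81, adjusted p = 0.0208), with DESeq2 (-2.42, adjusted p = 0.00325) and with no filter (adjusted p = 0.0119), and the day 7 difference passed with DESeq2 (adjusted p = 0.0402). Of the exonic bases, 1.53% overlap Syn2.

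Timp3 (ENSMUSG00000020044, chr10:86300372-86349506, plus strand), which binds to the matrix and also blocks ADAM proteases, was measured with the smallest standard errors. Its CPM was 792, 809, 724 and 643 at steady state, 473, 599 and 522 on day 1, 820, 646 and 890 on day 4 and 665, 540 and 827 on day 7. Each day 1 library lay below each steady state and day 4 library. The difference was -0.48 at day 1 (SE 0.238, adjusted p = 0.274) and 0.56 from day 1 to day 4 (SE 0.256, adjusted p = 0.287), neither of which passed. Its exonic bases overlap Syn3 for 21.3%, and counting at default settings leaves out reads that fall on more than 1 gene.

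Timp2 (ENSMUSG00000017466, chr11:118301069-118355740, minus strand) both inhibits MMPs and bridges the Mmp2 precursor to Mmp14 on the cell surface. Its CPM was 589, 756, 1340 and 1480 at steady state, 55.6, 827 and 577 on day 1, 810, 236 and 176 on day 4 and 1026, 255 and 848 on day 7. Day 1 replicate 1 and day 4 replicates 2 and 3, the libraries low in Mmp14, were the lowest here too. The log2 difference was -1.10 at day 1 (SE 0.822, adjusted p = 0.501), -1.35 at day 4 (SE 0.843, adjusted p = 0.462) and -0.55 at day 7 (adjusted p = 0.893).

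Mmp14 and Timp2 accordingly varied together across libraries, also among the libraries of the same day after TBI. Over the 13 libraries the Pearson r of their log2(CPM + 0.5) was 0.90 (Spearman rho 0.63), 0.73 without the 2 libraries farthest from the median of Mmp14, and 0.85 over the 10 libraries outside day 1. Mmp14 and Mmp2 had an r of 0.70 (rho 0.81), or 0.54 over those 10. The points share their libraries. The library's GC trend is the difference in log2 level between GC-rich and GC-poor genes. The r with that trend was 0.80 for Mmp14, 0.73 for Timp2, 0.53 for Mmp2, 0.24 for Mmp11 and -0.09 for Mmp9. The trend was -0.47 in day 1 replicate 1, against 0.34 and 0.30 in day 1 replicates 2 and 3. The GC content was 55.3% for Mmp2, 54.3% for Mmp14, 53.7% for Timp2, 55.2% for Mmp9 and 56.6% for Mmp11. Mmp2 also had an r of 0.89 with the summed fibroblast markers, a sum carried mainly by Col1a1 and Dcn, against 0.52 for Mmp14 and 0.35 for Timp2. The part of these measures in the spread was not tested.

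**Figure D3:**
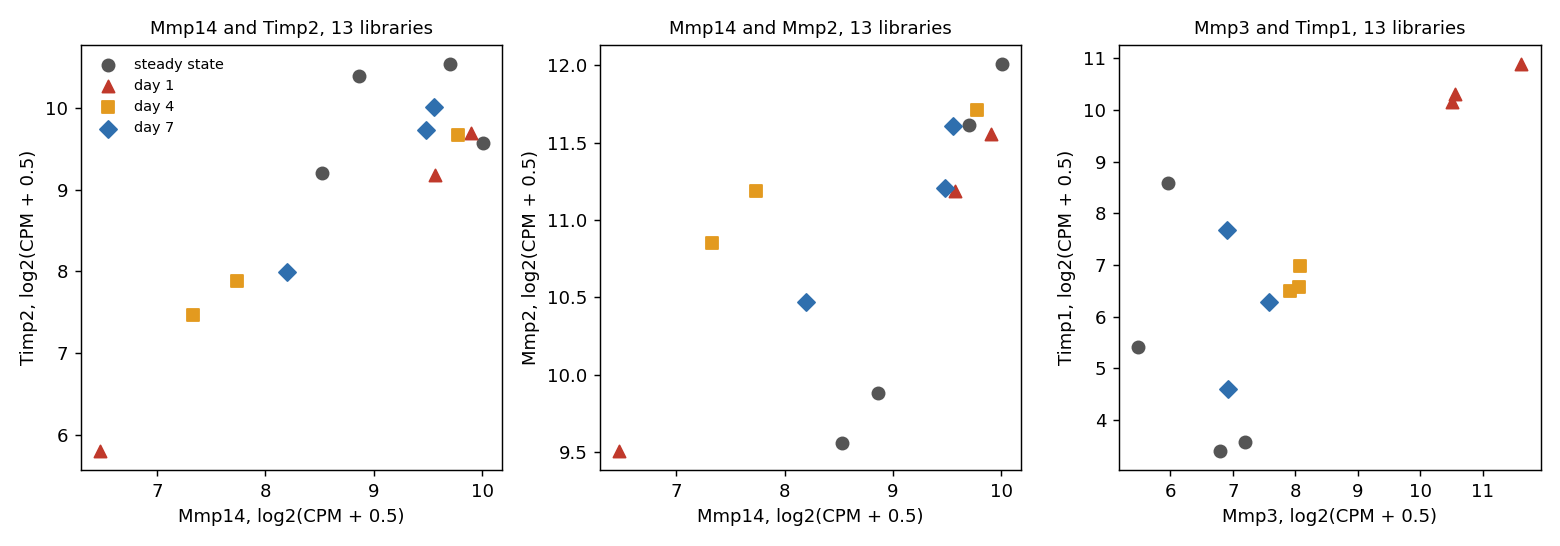
Log2(CPM + 0.5) of Timp2 against Mmp14, of Mmp2 against Mmp14 and of Timp1 against Mmp3, with 1 point per library and the group given by color and shape. Timp2 and Mmp14 run along a line that mixes the groups, whereas Mmp3 and Timp1 are set apart by the 3 day 1 libraries and show no relation (r = 0.04) over the other 10.

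The genes highest at day 1 were related through that day. The 3 day 1 libraries form a cluster of their own, and over the 10 other libraries r was 0.04 for Mmp3 and Timp1, -0.41 for Mmp3 and Mmp13 and -0.55 for Mmp13 and Timp1. Among 14590 tested genes with a mean of at least 1 CPM, the 3 most alike to Mmp3 over the 13 libraries were Dhx58 (r = 0.98), a member of the RIG-I-like receptor family, Mcoln2 (r = 0.98), an endolysosomal cation channel gene, and Batf2 (r = 0.96), a basic leucine zipper transcription factor gene. Over the 10 libraries outside day 1 these values were 0.92, 0.86 and 0.77. Dhx58, for example, went from 16.8 ± 3.48 CPM at steady state to 192 ± 77.6 at day 1 and 29.6 ± 3.04 at day 4 (SD, n = 4, 3 and 3).

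Most alike to Timp1 were Saa3 (r = 0.96), an acute-phase serum amyloid A gene, Chl1 (r = 0.95), a cell adhesion molecule gene, and Apol6 (r = 0.95), an apolipoprotein L gene, with 0.90, 0.86 and 0.91 over the 10 libraries outside day 1. Saa3 was at 75.2 ± 122 CPM at steady state, 2463 ± 1172 on day 1, 90.6 ± 26.5 on day 4 and 100.2 ± 143 on day 7 (SD), and its steady state values ranged from 8.43 to 258.

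Levels of different genes were compared per length, as TPM, which scales counts by exonic length and library. At steady state the mean TPM was 1911 ± 1285 for Mmp2, 815 ± 364 for Timp2, 345 ± 547 for Timp1, 332 ± 125 for Mmp14, 275 ± 33.4 for Timp3, 156 ± 88.3 for Mmp3, 118 ± 67.6 for Mmp9, 46.2 ± 9.44 for Mmp11, 46.2 ± 46.0 for Timp4 and 0.611 ± 0.395 for Mmp13 (SD, n = 4). The libraries of each gene overlapped those of its neighbor in this order, except that Mmp13 lay below all others. At day 1 the order was led by Timp1 (4599 ± 924 TPM), Mmp3 (3187 ± 1237) and Mmp2 (1775 ± 1069), each overlapping the next. At day 4 Mmp2 (2535 ± 650) led again, followed by Mmp3 (491 ± 12.1) and Timp1 (400 ± 70.4).

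The 6 Mmp genes summed to 1403, 3929, 1578 and 3347 TPM at steady state, to 5305, 5630 and 5229 on day 1, to 4552, 3398 and 2917 on day 4 and to 3667, 2157 and 3206 on day 7. The 4 Timp genes summed to 941, 1959, 1506 and 1519 TPM at steady state, to 5860, 5014 and 4630 on day 1, to 1374, 974 and 973 on day 4 and to 1293, 582 and 1874 on day 7. Both sums were highest in the 3 day 1 libraries, and these sums rest on the genes that had been chosen. Mmp23 was left out of the Mmp sum, with mean TPM of 339, 210, 394 and 365 at steady state and days 1, 4 and 7. So was Mmp19, with 103, 164, 103 and 89.7.

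The makeup of the sums changed with them. Mmp2 made up 50.6% to 83.4% of the Mmp sum at steady state, 10.8% to 46.4% at day 1, 68.5% to 71.6% at day 4 and 69.5% to 74.9% at day 7, while the share of Mmp3 was 2.16% to 18.3% at steady state and 43.4% to 87.0% at day 1. Timp1 made up 2.50% to 59.4% of the Timp sum at steady state and 83.2% to 96.6% at day 1. The ratio of the Timp sum to the Mmp sum was 0.671, 0.498, 0.955 and 0.454 at steady state, 1.10, 0.891 and 0.886 on day 1, 0.302, 0.287 and 0.334 on day 4 and 0.352, 0.270 and 0.584 on day 7. All day 4 libraries lay below all steady state libraries in this ratio, and the day 1 libraries overlapped steady state through PBS-d7-1.

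**Figure D4:**
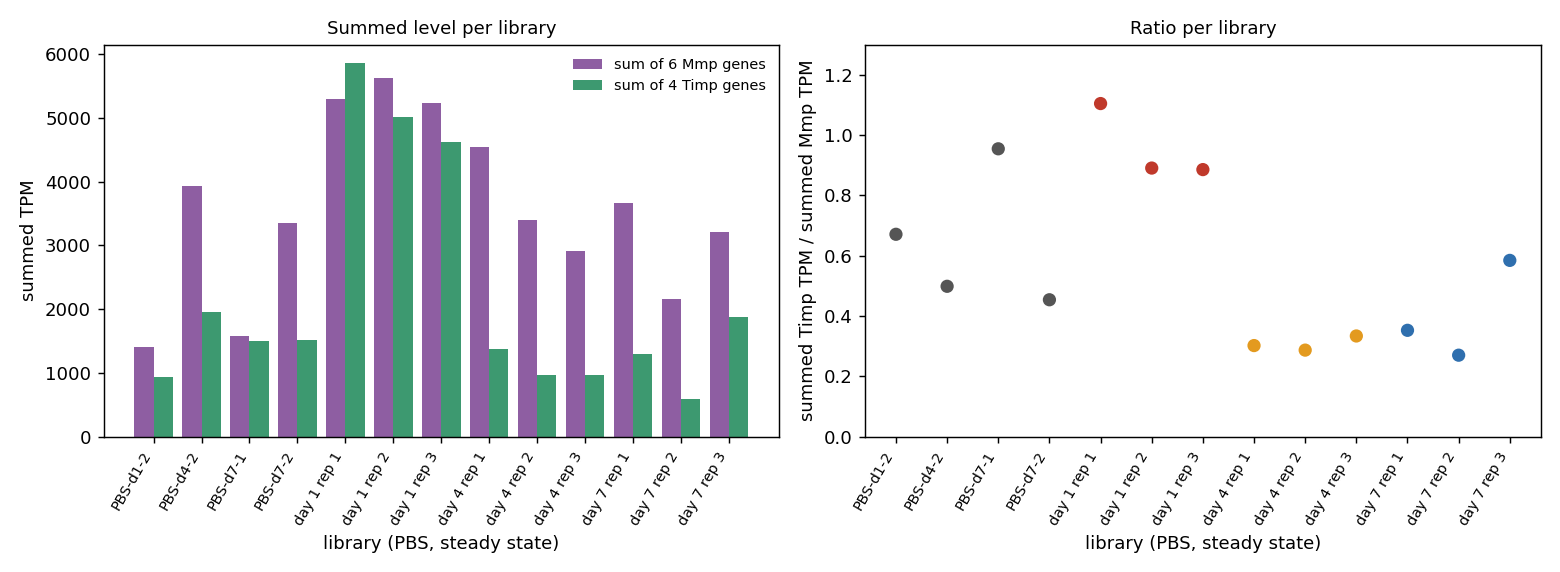
Left, summed TPM of the 6 Mmp genes and the 4 Timp genes in each library, bars starting at 0; right, the ratio of the Timp sum to the Mmp sum in each library, colored by group (steady state, then days 1, 4 and 7). Both sums are highest in the 3 day 1 libraries, and the ratio lies between 0.287 and 0.334 in the 3 day 4 libraries.

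Other genes of the same system were taken as whole lists and not one by one. The lists too were chosen with earlier results of these data known, so their counts and medians are a description. Their counts at an unadjusted p under 0.05 stand beside those of all tested genes given above. Of 17 other Mmp genes 14 were tested (Mmp1a, Mmp1b and Mmp21 were not), and at day 1 edgeR called Mmp16, which encodes a membrane-type metalloproteinase, and no other. Mmp16 fell by 1.62 on the log2 scale, from 13.8 ± 4.998 to 4.47 ± 0.849 CPM (SD, SE 0.436, adjusted p = 0.0159), with no overlap between the groups. That call was lost without PBS-d7-1, PBS-d7-2, day 1 replicate 1 or day 1 replicate 2 (adjusted p of 0.0546 to 0.0813) and with only the groups compared (0.0936). DESeq2 called Mmp16 and also Mmp12, the macrophage elastase gene, which was higher in every day 1 library (0.383 ± 0.400 to 2.35 ± 0.167 CPM, SD) at a log2 difference of 2.56 by edgeR (SE 0.975, adjusted p = 0.139). At day 1, 3 of the 14 had an unadjusted p under 0.05. From day 4 to day 7 Mmp20, an enamel protease gene below 1 CPM that falls outside the rule for named genes, was called lower by edgeR (adjusted p = 0.0416), with 0 counts in all 3 day 7 libraries, and it lost the call in 13 of 22 alternatives. In that comparison 3 of the 14 had an unadjusted p under 0.05, and DESeq2 called 3 lower (Mmp7, Mmp10 and Mmp20), of which Mmp7, the matrilysin gene, went from 3.11 ± 1.66 to 0.675 ± 0.0508 CPM (adjusted p = 0.0994 by edgeR). None of the 14 was called by edgeR in the remaining comparisons, where 2 (day 4), 3 (day 7) and 5 (day 4 against day 1) had an unadjusted p under 0.05 and DESeq2 called 0, 3 and 0.

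Of 15 genes that activate, anchor or restrain MMPs, 2 rose at day 1 and none fell by edgeR. Tfpi2, a secreted inhibitor of plasmin and other serine proteases, rose by 2.69 (27.9 ± 18.2 to 180 ± 51.7 CPM, SE 0.647, adjusted p = 0.00447) and fell by 2.71 from day 1 to day 4 (SE 0.689, adjusted p = 0.0131). Plaur, the urokinase receptor that focuses plasmin formation on the cell surface, rose by 1.17 (19.3 ± 5.65 to 43.3 ± 9.06 CPM, SE 0.336, adjusted p = 0.0289) and fell by 1.52 from day 1 to day 4 (SE 0.394, adjusted p = 0.0155). Tfpi2 passed at day 1 in all 22 alternatives, and its fall was lost without any of the 3 day 4 replicates (adjusted p of 0.0727 to 0.0914). The rise of Plaur was lost in 10 of 22, among them without PBS-d7-1, PBS-d7-2, day 1 replicates 1 or 2, day 4 replicate 3 or day 7 replicate 3 (adjusted p of 0.0511 to 0.121), and its fall without day 1 replicates 1 or 2 or any day 4 replicate (0.0513 to 0.114). DESeq2 called these 2 and Furin, a convertase that activates membrane-type MMPs, higher at day 1, and Tfpi2, Plaur, Furin and Thbs1 lower at day 4 than at day 1; by edgeR Furin had an adjusted p of 0.146 and 0.129, and Thbs1 one of 0.113 in the latter. In the other 3 comparisons edgeR called none of the 15, with 0 (day 4), 1 (day 7) and 0 (day 7 against day 4) at an unadjusted p under 0.05 and 0, 1 and 0 by DESeq2. The median log2 fold change of the list was 0.41 at day 1 and -0.66 from day 1 to day 4, against -0.10 over all genes in both.

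No gene of the 14 ADAM and ADAMTS proteases, related metalloproteinases that shed cell surface proteins or cleave proteoglycans, was called by edgeR in any of the 5 comparisons. At an unadjusted p under 0.05 there were 1, 2 and 1 at days 1, 4 and 7 against steady state, 3 for day 4 against day 1 and 2 for day 7 against day 4, and DESeq2 called 1 at day 1 (Adamts4, higher) and 1 from day 4 to day 7 (Adam8, lower). The 14 matrix substrates, which include Col1a1, Fn1, Eln and Dcn, also had none called by edgeR, with 4, 0, 0, 3 and 0 at an unadjusted p under 0.05 and 1 DESeq2 call (Vcan, lower at day 4 than at day 1). Their median log2 fold change was -0.29, -0.39 and -0.20 at days 1, 4 and 7 against steady state.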

How the data were processed

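PolyA RNA of 13 CD45- thymic stroma libraries was sequenced. According to the methods and the submitters' processing notes, the authors trimmed reads with Trimmomatic 0.38, aligned them with STAR 2.7.0e to GRCm38.p5 (GENCODE M12) and counted them per gene with featureCounts 1.6.3 at default settings; the deposited values are raw counts with the exonic length. The default counts without regard to strand.

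Counts were tested with edgeR 4.0.16 (R 4.3.3; TMM, filterByExpr by group, 1 quasi-likelihood fit of all 13 libraries; common dispersion 0.177, 9 residual degrees of freedom) in 5 contrasts, with Benjamini-Hochberg adjustment over 19984 genes. The SE is the log2 fold change over the normal quantile of its p. CPM used TMM library sizes, TPM the exonic length. Symbols were found for 53274 of 53379 IDs. The code was tested on simulated counts. With changes put in at day 1 against steady state, the fit called 6 of 100 genes changed 2-fold and 70 of 100 changed 4-fold. A gene that was not called is therefore not shown to be unchanged. Libraries of a group differed by 40.4 to 575 chi-square units per degree of freedom (15 pairs), so none was a copy.

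The genes named were the 10 members, up to 4 called genes per list and comparison above 1 CPM, and the 3 genes most alike to Mmp3 and to Timp1. Mmp23 and Mmp19 were named for their level alone. Members and lists were chosen with earlier results of these data known. Alternatives were DESeq2 1.42.0, RLE, other filters, only the groups compared, covariates (a thymocyte marker score; tag family, a suffix shared by column names, of unknown meaning), a replicate block, and each library left out. A further 2 were chosen after seeing the data: removing the trend with GC content, and leaving out the 2 day 7 libraries with most thymocyte markers. Same-numbered libraries did not deviate together (mean r -0.27 over 9 pairs, 0.11 over the 18 others).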

Additional observations from a re-analysis of the deposited data

Results flagged for a closer look

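Timp1 at steady state had a library that stood apart: PBS-d4-2 at 385 CPM, against 10.1 to 42.0 CPM in the other 3. On the CPM scale its gap to the next library was 0.915 of the group's range, above Dixon's 95% critical value for 4 samples. On the log2 scale of the figures the values were 3.40 in PBS-d7-1, 3.58 in PBS-d1-2, 5.41 in PBS-d7-2 and 8.59 in PBS-d4-2. The gap takes up less of the range on that scale, where the test was not run, so the flag rests on the CPM scale. The steady state values of all 10 members were examined. Chance flags about 1 in 20 such groups if their values are normally distributed, which was not tested. That library also had the highest fibroblast marker sum of the group (50683 CPM). Within that sum Col1a1 ranged from 1122 to 26605 CPM over the 4 libraries, whereas Pdgfra ranged from 659 to 884 CPM. Their part in the Timp1 level was not tested.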

How the results depend on the processing

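The direction of no called result reversed under any alternative. Mmp3 passed at day 1 in all 22 alternatives and from day 1 to day 4 in all 23, and the group with the highest mean was the same for all 10 members in TPM as in CPM. The other member calls depended on the settings; the cause was not tested. Members called at day 1 (2) became 4 with DESeq2 or no filter and 1 with at least 10 counts in every library or the thymocyte score; 1 to 4 when each library was left out. At day 4 (1) they became 2 with DESeq2 or no filter and 0 with at least 10 counts, the tag family or the thymocyte score (0 to 1 leaving out a library). At day 7 (0) DESeq2 called 1 (0 leaving out any library). From day 1 to day 4 (2) they became 4 with DESeq2 or no filter and 1 with the tag family or the replicate block (1 to 3). From day 4 to day 7 (0) they became 1 with DESeq2, RLE, no filter, only the groups compared or the GC trend removed (0 to 1).

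Of all genes, 469 were called at day 1, against 1399 with DESeq2, 228 with only the groups compared and 1066 with the tag family (252 to 797 leaving out a library). At day 4, 58 became 645 with DESeq2, 250 with no filter, 20 with at least 10 counts, 146 with only the groups compared, 33 with the tag family, 179 without the 2 day 7 libraries and 91 with the GC trend removed (19 to 226). At day 7, 1 became 1081 with DESeq2, 627 with no filter, 218 with the thymocyte score and 0 with at least 10 counts, only the groups compared, the tag family or without the 2 day 7 libraries (0 to 622). From day 1 to day 4, 285 became 960 with DESeq2, 163 with the tag family and 56 with the replicate block (87 to 362). From day 4 to day 7, 779 became 1919 with DESeq2, 1265 with no filter, 355 with at least 10 counts, 394 with only the groups compared, 22 with the thymocyte score, 0 with the replicate block and 17 without the 2 day 7 libraries (15 to 1507).

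The replicate numbers only name libraries, so the block was fitted to the 9 libraries after TBI alone. With the replicate block the decreases of Mmp13 (adjusted p = 0.0976) and Plaur (0.119) from day 1 to day 4 and of Mmp20 (0.0841) from day 4 to day 7 did not pass, and those of Mmp3 and Tfpi2 did. Depth limits Mmp13, which had 0 to 39 counts per library outside day 1.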
